A study of Caenorhabditis elegans with 11 samples.

Results

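The 10 genes described here encode the oxygen and hydrogen sulfide sensing pathway of *Caenorhabditis elegans* and the enzymes that make and remove sulfide. They are *hif-1*, *egl-9*, *rhy-1*, *cysl-1*, *cysl-2*, *cysl-3*, *cysl-4*, *cth-1*, *cth-2* and *sqrd-1*. They were chosen by name and not by a rule on their measured values, though with earlier results of these data known. The probe sets used carry only that gene symbol, and each of the 10 had 1 such probe set among the 26761 tested. Their transcripts were measured on Affymetrix arrays in whole animals of strain JK1466, a tumoral strain whose germline forms a tumour when *gld-1* is lost. The 4 groups were animals given tryptophan-betaxanthin (3 arrays), tryptophan methyl ester-betaxanthin (3 arrays), tryptophan benzyl ester-betaxanthin (3 arrays) or water as the control (2 arrays). Tryptophan-betaxanthin is a yellow plant pigment, and the esters differ from it in a methyl or a benzyl ester at the carboxyl group of the tryptophan. The question was which transcripts each compound alters, and how the esters differ from the parent pigment.

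All groups, the controls included, were of 1 strain, in which the deletion *gld-1*(q485) is kept as a heterozygote over a chromosome marked by *dpy-5*(e61) and *unc-13*(e51). The labels give the genotype as *gld-1*(-). All groups were also fed HT115 bacteria that carry *gld-1* double-stranded RNA. The strain carries a wild-type copy of *gld-1* on the balancing chromosome, and the feeding was meant to lower it. Each compound was given at 25 µM in liquid medium for 48 h at 20 °C, starting 16 to 18 h after hatching, and the labels describe the animals as L4 larvae or young adults at 2 days after hatch. The labels number independent trials, 1 to 3 for each compound and 1 and 2 for the control, and the trial 3 control was not analysed here.

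In *C. elegans*, as in mammals, the transcription factor HIF-1 is marked for destruction when oxygen is present, because the prolyl hydroxylase EGL-9 modifies it and the VHL-1 ubiquitin ligase then binds it. Hydrogen sulfide acts on the same switch, since the cysteine synthase homolog CYSL-1 binds EGL-9 and holds it off when sulfide is high, while the membrane protein RHY-1 restrains CYSL-1. Stabilised HIF-1 raises genes for sulfide and cyanide removal, among them *cysl-2* and *sqrd-1*, and also *rhy-1* and *egl-9*, which feed back on the pathway.

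Array medians over the tested probe sets were 2.23 to 2.32 on the log2 scale, the lowest correlation between arrays was 0.96, and no pair of arrays was identical. Marker lists for muscle, intestine, neurons and hypodermis had median signals of 6.65 to 8.46 in all arrays, above the median of 2.28 for all probe sets. The targeted gene *gld-1* had log2 signals of 7.12, 7.45 and 7.14 in the tryptophan-betaxanthin arrays, 6.74, 7.33 and 5.91 in the methyl ester arrays, 6.44, 5.50 and 6.27 in the benzyl ester arrays, and 7.32 and 7.43 in the controls. It was thus detected in every group, and with no array of animals without the RNA interference this does not check the knock-down. The third-trial arrays of the methyl and the benzyl ester stood apart. The median of the 6 yolk protein genes was 7.0 and 5.85 in them, against 8.86 to 9.46 in the other 9 arrays, and moulting genes were higher there than in the earlier trials of the same ester (medians of the shifts 1.2 and 1.64). Where a call changed without the third trial, both values are given.

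Of the 10 genes, *cysl-2* and *cth-1* passed the threshold of 0.05 on the adjusted p of limma in at least 1 of the 6 comparisons between groups, against 3.75% of all tested probe sets. *cysl-2* fell with the benzyl ester relative to the control, to tryptophan-betaxanthin and to the methyl ester, and *cth-1* rose with the methyl ester relative to the control and to tryptophan-betaxanthin. By comparison, no gene passed with tryptophan-betaxanthin against the control, where 0.00374% of all probe sets passed and 1 of the 10 genes had an unadjusted p below 0.05, as did 6.04% of all probe sets. With the methyl ester against the control 1 gene of 10 passed, against a background of 0.258%, and with the benzyl ester against the control 1 of 10, against 0.564%. With the methyl ester against tryptophan-betaxanthin 1 of 10 passed, against 1.37%, and with the benzyl ester against tryptophan-betaxanthin 1 of 10, against 3.09%. Between the methyl and the benzyl ester 1 of 10 passed, against 0.149%. The median difference of the 10 genes was 0.29 log2 units between the methyl and the benzyl ester (all probe sets 0) and lay between -0.21 and 0.13 in the other comparisons (all probe sets -0.01 to 0.01). The comparisons share arrays and are not independent of each other. All 10 genes had a mean signal at or above the median of the tested probe sets. The background shares cover probe sets of every level, and shares among probe sets of like signal were not computed.

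**Figure D1:**
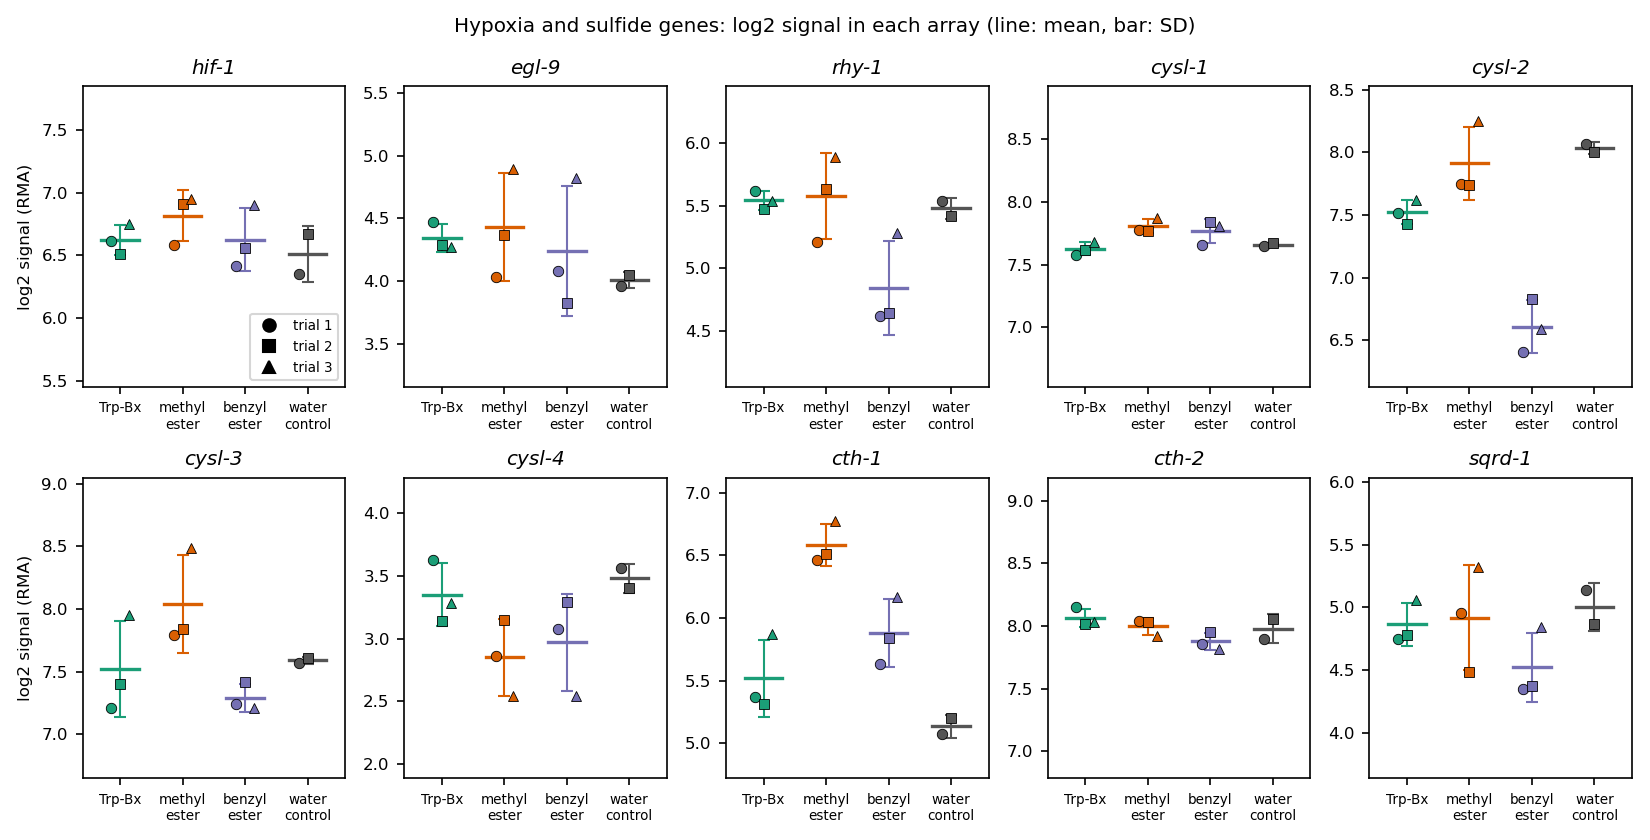
Log2 signal of each of the 10 genes in the 11 arrays, with the groups on the x axis (Trp-Bx, tryptophan-betaxanthin) and the trial as the marker shape. Lines are group means and bars 1 SD. Every panel spans the same number of log2 units, and the benzyl ester arrays of *cysl-2* and the methyl ester arrays of *cth-1* lie apart from all other arrays.

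Among the sensing genes, the transcription factor gene *hif-1* had log2 signals of 6.61, 6.51 and 6.75 in the tryptophan-betaxanthin arrays, 6.58, 6.91 and 6.95 in the methyl ester arrays, 6.41, 6.56 and 6.90 in the benzyl ester arrays, and 6.35 and 6.67 in the controls. The 4 groups overlapped, and the differences from the control were 0.11, 0.30 and 0.11 (standard error 0.17 each, adjusted p = 0.946, 0.416 and 0.812 from limma). The prolyl hydroxylase gene *egl-9* had 4.47, 4.29 and 4.27 in the tryptophan-betaxanthin arrays, 4.03, 4.37 and 4.89 in the methyl ester arrays, 4.08, 3.82 and 4.82 in the benzyl ester arrays, and 3.96 and 4.05 in the controls. The third-trial arrays of the esters exceeded the mean of the earlier trials by 0.68 with the methyl ester and by 0.87 with the benzyl ester. All tryptophan-betaxanthin arrays lay above the controls, by 0.34 on average (standard error 0.29, adjusted p = 0.902 from limma). No comparison of *egl-9* passed, and its difference between the methyl and the benzyl ester was 0.19 (95% interval -0.40 to 0.78).

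The gene *cysl-1*, which encodes the sulfide-responsive partner of EGL-9, was the steadiest of the 10, with a within-group SD of 0.06 log2 units. It had signals of 7.58, 7.62 and 7.68 in the tryptophan-betaxanthin arrays, 7.78, 7.77 and 7.87 in the methyl ester arrays, 7.66, 7.84 and 7.81 in the benzyl ester arrays, and 7.65 and 7.67 in the controls. The methyl ester arrays all lay above those of tryptophan-betaxanthin and of the control, by 0.18 (standard error 0.08, adjusted p = 0.256 from limma) and 0.14 (0.09, adjusted p = 0.452), which did not pass the test. The 95% intervals of these differences were 0 to 0.35 and -0.06 to 0.34.

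For *rhy-1*, the membrane protein gene that restrains CYSL-1 and is itself a HIF-1 target, the benzyl ester group was the lowest. The signals were 5.62, 5.47 and 5.54 in the tryptophan-betaxanthin arrays, 5.21, 5.63 and 5.89 in the methyl ester arrays, 4.62, 4.64 and 5.28 in the benzyl ester arrays, and 5.54 and 5.42 in the controls. All benzyl ester arrays lay below those of tryptophan-betaxanthin and of the control, while the benzyl ester array of the third trial (5.28) overlapped the methyl ester group. The differences of the benzyl ester were -0.63 from the control (standard error 0.23, adjusted p = 0.242 from limma) and -0.70 from tryptophan-betaxanthin (0.20, adjusted p = 0.0943), and neither passed. The methyl ester exceeded the benzyl ester by 0.73 (0.20, adjusted p = 0.619), with 0.59, 0.99 and 0.61 within trials 1, 2 and 3. In trials 1 and 2 alone both passed, as the differences of the benzyl ester were -0.85 from the control (adjusted p = 0.016) and -0.92 from tryptophan-betaxanthin (adjusted p = 0.011). Leaving out benzyl ester array 3 alone gave -0.85 from the control (adjusted p = 0.1), which did not pass, and -0.91 from tryptophan-betaxanthin (adjusted p = 0.03), which did.

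Among the cysteine synthase family, *cysl-2* showed the widest range over the 11 arrays, 1.85 log2 units. It encodes a cyanoalanine synthase, which joins cyanide to cysteine and releases sulfide, and in worms it is a well-known readout of HIF-1 activity. Its signals were 7.52, 7.43 and 7.62 in the tryptophan-betaxanthin arrays, 7.75, 7.74 and 8.25 in the methyl ester arrays, 6.41, 6.83 and 6.59 in the benzyl ester arrays, and 8.07 and 8.0 in the controls. The benzyl ester arrays were the lowest 3 of the 11 and overlapped no other group, the tryptophan-betaxanthin arrays came next, and the methyl ester and control arrays were the highest and overlapped each other. In whole animals a lower signal can come from less RNA per cell or from fewer cells that express the gene, and these cannot be told apart.

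*cysl-2* fell 2.68-fold with the benzyl ester relative to the control (log2 difference -1.42, standard error 0.17, 95% interval -1.81 to -1.04, adjusted p = 0.00717 from limma). It fell 1.89-fold relative to tryptophan-betaxanthin (-0.92, standard error 0.16, interval -1.26 to -0.57, adjusted p = 0.0259 from limma). Between the esters it was 2.47-fold higher in the methyl ester group (1.31, standard error 0.16, interval 0.96 to 1.65, adjusted p = 0.0108 from limma). Each difference had the same sign at every trial number present in both groups. It was -1.66 and -1.16 for the benzyl ester minus the control, -1.12, -0.60 and -1.04 for the benzyl ester minus tryptophan-betaxanthin, and 1.35, 0.91 and 1.67 between the methyl and the benzyl ester. The exact two-sided permutation test gave p = 0.1 for all 3 differences, the smallest value that 3 arrays against 2 or 3 can give.

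The other *cysl-2* differences did not pass. With tryptophan-betaxanthin it was -0.51 from the control (standard error 0.17, adjusted p = 0.720 from limma), lower in all 3 arrays. With the methyl ester it was -0.12 from the control (interval -0.50 to 0.27, adjusted p = 0.780) and 0.39 above tryptophan-betaxanthin (0.16, adjusted p = 0.197). The call of the benzyl ester against the control was lost without control array 1 (adjusted p = 0.15) or control array 2 (0.11), which leaves 1 control. The call against tryptophan-betaxanthin was lost without tryptophan-betaxanthin array 1, 2 or 3 (adjusted p = 0.09, 0.098 and 0.077), benzyl ester array 2 (0.057) or either control array (0.057 each), with differences of -1.03 to -0.87. The call between the methyl and the benzyl ester held without any 1 array. Fitted on only the arrays of the groups compared, the call against the control (adjusted p = 0.089) and the call between the esters (0.38) were lost.

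Marker lists also differed between the benzyl ester and the control. The 4 germline genes had a median difference of -0.97 and the 4 oocyte genes -1.23, with list medians per array of 5.39 to 6.02 and 4.31 to 5.55 with the benzyl ester, against 6.75 to 6.82 and 6.12 to 6.14 in the controls. The medians were -1.31 for the 6 yolk genes, -0.81 for the 5 sperm genes and 0.86 for the 5 moulting genes, with list medians per array of 5.85 to 8.86, 4.39 to 5.70 and 6.10 to 6.48 with the benzyl ester, against 9.43 to 9.46, 5.94 to 6.09 and 5.70 to 5.83 in the controls. No gene of these 5 lists passed the test against the control. The germline list includes *gld-1*, the gene targeted in all groups. With the benzyl ester *gld-1* was -1.31 from the control, *mex-5* -1.16, *pgl-1* -0.79 and *glh-1* -0.53. With the methyl ester, where *cysl-2* overlapped the control, the medians from the control were -0.79 (germline), -1.06 (oocyte), -0.95 (yolk), -0.77 (sperm) and 0.91 (moulting), and between the methyl and the benzyl ester they were 0.02, 0.23, 0.35, 0.03 and 0.33 in the same order. Their part in the *cysl-2* result was not tested.

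The paralog *cysl-3* had signals of 7.21, 7.40 and 7.95 in the tryptophan-betaxanthin arrays, 7.79, 7.84 and 8.49 in the methyl ester arrays, 7.24, 7.42 and 7.21 in the benzyl ester arrays, and 7.57 and 7.61 in the controls. The methyl ester arrays all exceeded the benzyl ester arrays and the controls. The methyl ester was 0.75 above the benzyl ester (standard error 0.22, adjusted p = 0.667 from limma), 0.52 above tryptophan-betaxanthin (0.22, adjusted p = 0.218) and 0.45 above the control (0.24, adjusted p = 0.388), and none of these passed.

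The paralog *cysl-4* had signals of 3.63, 3.14 and 3.28 in the tryptophan-betaxanthin arrays, 2.86, 3.15 and 2.54 in the methyl ester arrays, 3.08, 3.29 and 2.54 in the benzyl ester arrays, and 3.56 and 3.40 in the controls. Its lowest signals, 2.54, were close to the median of 2.28 for all probe sets. Both esters lay below the controls in every array, by -0.63 with the methyl ester (standard error 0.24, adjusted p = 0.260 from limma) and -0.51 with the benzyl ester (0.24, adjusted p = 0.356), and neither difference passed.

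**Figure D2:**
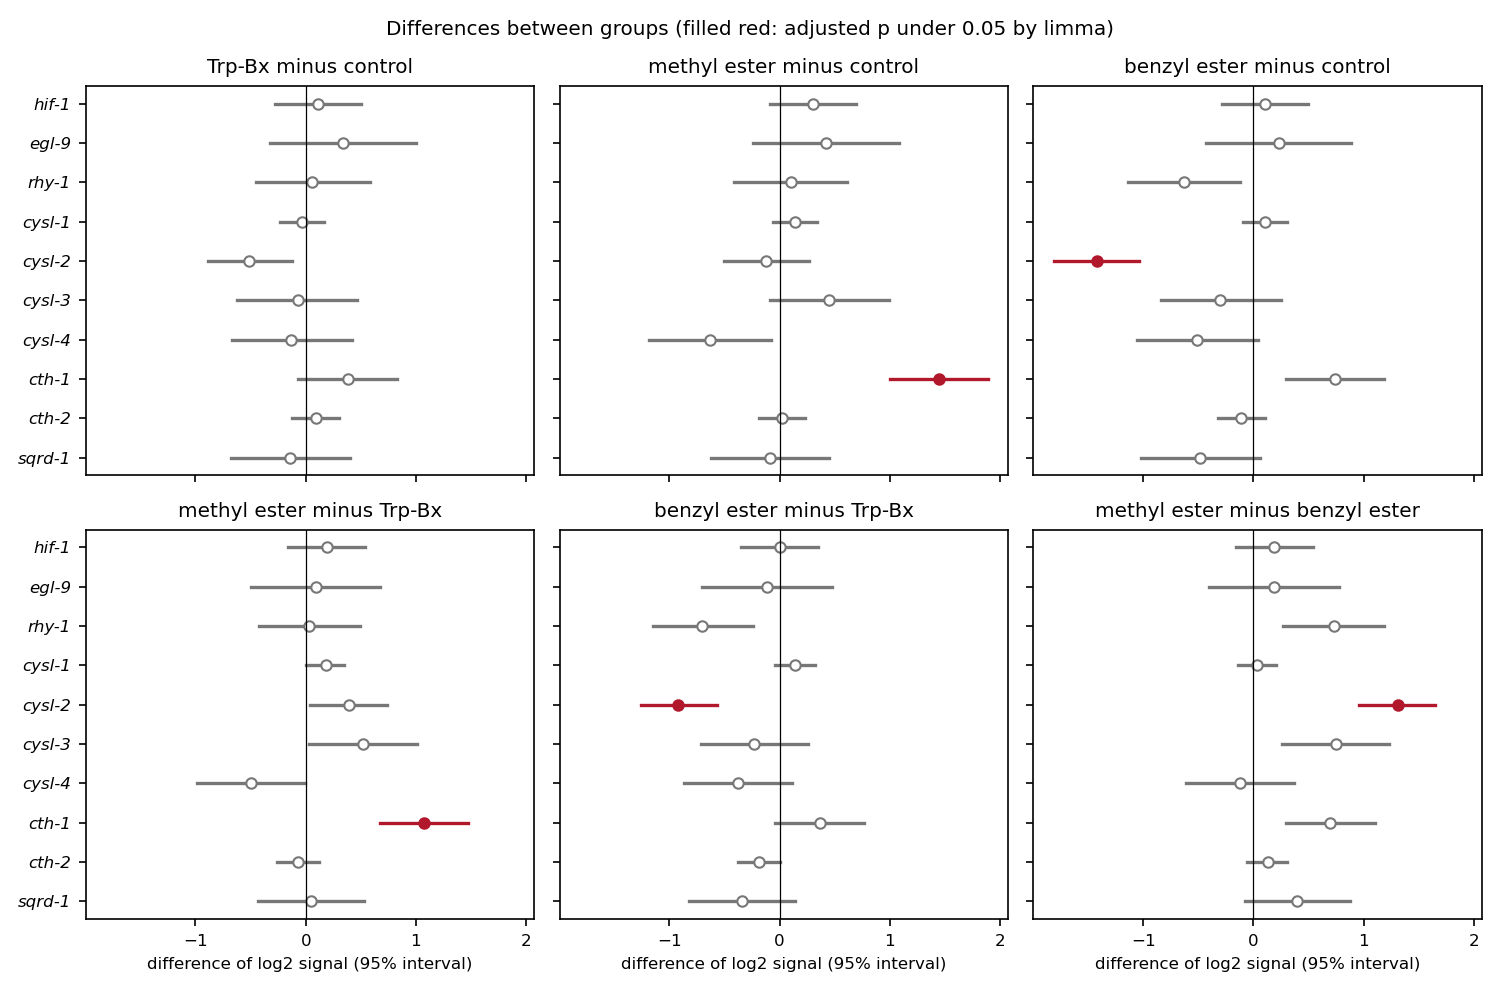
Difference of log2 signal for each of the 10 genes (rows) in each of the 6 comparisons (panels), with 95% intervals from limma. Filled red points passed an adjusted p of 0.05, and they are *cth-1* for the methyl ester set against control and against the parent pigment, and *cysl-2* for the benzyl ester in the same 2 contrasts and between the esters.

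Both *cth-1* and *cth-2* encode homologs of cystathionine gamma-lyase, the enzyme that releases cysteine in the transsulfuration pathway and that in mammals also makes hydrogen sulfide. *cth-1* had signals of 5.37, 5.31 and 5.87 in the tryptophan-betaxanthin arrays, 6.46, 6.51 and 6.77 in the methyl ester arrays, 5.63, 5.84 and 6.17 in the benzyl ester arrays, and 5.07 and 5.20 in the controls. From high to low the group means ran methyl ester, benzyl ester, tryptophan-betaxanthin, control, the methyl ester arrays overlapped no other group, and the benzyl ester and tryptophan-betaxanthin groups overlapped. The benzyl ester and tryptophan-betaxanthin arrays all exceeded both controls.

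*cth-1* rose 2.72-fold with the methyl ester relative to the control (log2 difference 1.45, standard error 0.20, 95% interval 1.00 to 1.89, adjusted p = 0.0272 from limma). It rose 2.09-fold relative to tryptophan-betaxanthin (1.07, standard error 0.18, interval 0.67 to 1.47, adjusted p = 0.0305 from limma). Within trials the differences were 1.40 and 1.31 against the control and 1.1, 1.2 and 0.90 against tryptophan-betaxanthin. Between the methyl and the benzyl ester the difference was 0.70 (standard error 0.18, adjusted p = 0.474 from limma), with 0.84, 0.67 and 0.60 within trials. With the trial number as a block that difference passed (0.70, adjusted p = 0.026 from limma). The labels do not say that same-numbered arrays of different groups were paired. The exact permutation test gave p = 0.1 for the 2 called differences.

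The benzyl ester was 0.74 above the control (standard error 0.20, adjusted p = 0.15 from limma) and 0.37 above tryptophan-betaxanthin (0.18, adjusted p = 0.295), and tryptophan-betaxanthin 0.38 above the control (0.20, adjusted p = 0.856). Without the third trial the benzyl ester was 0.60 above the control (adjusted p = 0.024) and the methyl ester 0.75 above the benzyl ester (adjusted p = 0.032). The call of the methyl ester against the control was lost without tryptophan-betaxanthin array 1 or 2 (adjusted p = 0.056 and 0.06), methyl ester array 1 or 3 (0.078 and 0.059), benzyl ester array 2 (0.054) or control array 1 or 2 (0.46 and 0.29), with differences of 1.35 to 1.51. The call against tryptophan-betaxanthin was lost without tryptophan-betaxanthin array 1 or 2 (0.11 and 0.14), methyl ester array 1 or 3 (0.086 and 0.083) or either control (0.069 each), with differences of 0.96 to 1.13. Fitted on only the arrays of the groups compared, neither passed (adjusted p = 0.13 and 0.076).

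With the methyl ester the intestine markers *elt-2*, *ges-1*, *vha-6* and *act-5* had a median difference of 0.52 from the control. The 4 hypodermis markers had a median of 0.98, and none of these 8 genes passed. The hypodermis markers did not move in 1 direction, with 1.23 for *dpy-7*, 1.09 for *rol-6*, 0.87 for *dpy-5* and -0.52 for *col-19*. The median signal of the intestine list ranged from 7.85 to 8.46 with the methyl ester, against 7.48 to 7.66 in the controls, and that of the hypodermis list from 7.88 to 8.15, against 7.58 to 7.66. Their part in the *cth-1* result was not tested.

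*cth-2* differed little between groups. Its signals were 8.15, 8.02 and 8.03 in the tryptophan-betaxanthin arrays, 8.04, 8.03 and 7.92 in the methyl ester arrays, 7.86, 7.95 and 7.82 in the benzyl ester arrays, and 7.90 and 8.06 in the controls. The difference of the methyl ester from the control was 0.02 (95% interval -0.19 to 0.23, adjusted p = 0.945 from limma), and the benzyl ester was -0.19 from tryptophan-betaxanthin (interval -0.38 to 0, adjusted p = 0.237). The interval of *cth-2* for the methyl ester against the control thus lay wholly below that of *cth-1*.

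*sqrd-1* encodes the sulfide:quinone oxidoreductase of mitochondria, which takes up sulfide and passes its electrons to the respiratory chain. It had signals of 4.75, 4.78 and 5.06 in the tryptophan-betaxanthin arrays, 4.95, 4.48 and 5.32 in the methyl ester arrays, 4.35, 4.37 and 4.84 in the benzyl ester arrays, and 5.14 and 4.87 in the controls. The benzyl ester arrays all lay below the controls, by -0.48 on average (standard error 0.24, interval -1.02 to 0.06, adjusted p = 0.373 from limma), and the third-trial array was the highest of each compound. No comparison of *sqrd-1* passed.

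Of 29 other genes listed for the pathway, 26 had a probe set of their own. Of these 26, 1 gene, *ethe-1*, passed the test in any comparison, a share close to the background of 3.75% of all probe sets. It encodes the mitochondrial persulfide dioxygenase, which acts after SQRD-1 in sulfide oxidation. Its signals were 4.16, 3.85 and 3.74 in the tryptophan-betaxanthin arrays, 4.87, 4.60 and 4.78 in the methyl ester arrays, 4.79, 4.68 and 4.38 in the benzyl ester arrays, and 4.65 and 4.57 in the controls. Tryptophan-betaxanthin arrays were below all others. *ethe-1* was higher by 0.83 with the methyl ester (standard error 0.14, adjusted p = 0.0305 from limma) and by 0.70 with the benzyl ester (0.14, adjusted p = 0.0344) than with tryptophan-betaxanthin, in all 3 arrays of each ester. Tryptophan-betaxanthin was -0.69 from the control (0.16, adjusted p = 0.390), which did not pass. The methyl ester call was lost without any 1 tryptophan-betaxanthin array, methyl ester array 1 or 3 or either control (adjusted p = 0.056 to 0.14, differences of 0.74 to 0.95). The benzyl ester call was lost without any 1 tryptophan-betaxanthin array, methyl ester array 1, benzyl ester array 1 or 2 or either control (0.052 to 0.14, differences of 0.61 to 0.82).

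None of the 7 other regulators and partners of HIF-1 passed in any comparison. They include *vhl-1*, the recognition subunit of the ubiquitin ligase, and *aha-1*, the HIF-1 partner, and their median difference lay between -0.05 and 0.08 in the 6 comparisons. None of the 7 HIF-1-responsive genes listed outside the 10 passed either. Their medians were -0.06 for tryptophan-betaxanthin, -0.05 for the methyl ester and -0.42 for the benzyl ester, each against the control. HIF-1 is known to lower *ftn-1* and to raise the others, so these medians do not measure HIF-1 activity. With the benzyl ester 5 of the 7 differences from the control were negative and 2 positive, *ftn-1* (1.01) and *phy-2* (0.54). *phy-2* is among the genes that HIF-1 raises, and all its benzyl ester arrays (6.16, 6.27 and 6.44) lay above both controls (5.78 and 5.70). The 7 genes thus did not move in 1 direction. The signals of *oac-54*, 1.13 to 1.59, lay below the median of 2.28 for all probe sets. Among the 7 genes the nuclear receptor gene *nhr-57*, a standard HIF-1 reporter, had 4.38, 4.24 and 4.46 in the tryptophan-betaxanthin arrays, 4.90, 4.66 and 5.72 in the methyl ester arrays, 3.41, 3.33 and 4.75 in the benzyl ester arrays, and 4.32 and 4.52 in the controls. The first and second benzyl ester arrays were the lowest of the 11, and the third was above both controls. On average the benzyl ester group of *nhr-57* was -0.59 from the control, with a 95% interval of -1.52 to 0.34. The methyl ester was 1.26 above the benzyl ester (standard error 0.37, adjusted p = 0.683 from limma), and this became 1.73 when benzyl ester array 3 was left out (adjusted p = 0.044) and 1.41 in trials 1 and 2 alone (adjusted p = 0.0021). *nhr-57* was named after its values were seen. Of the 12 measured genes of sulfide and cysteine metabolism, 1, *ethe-1*, passed.

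**Figure D3:**
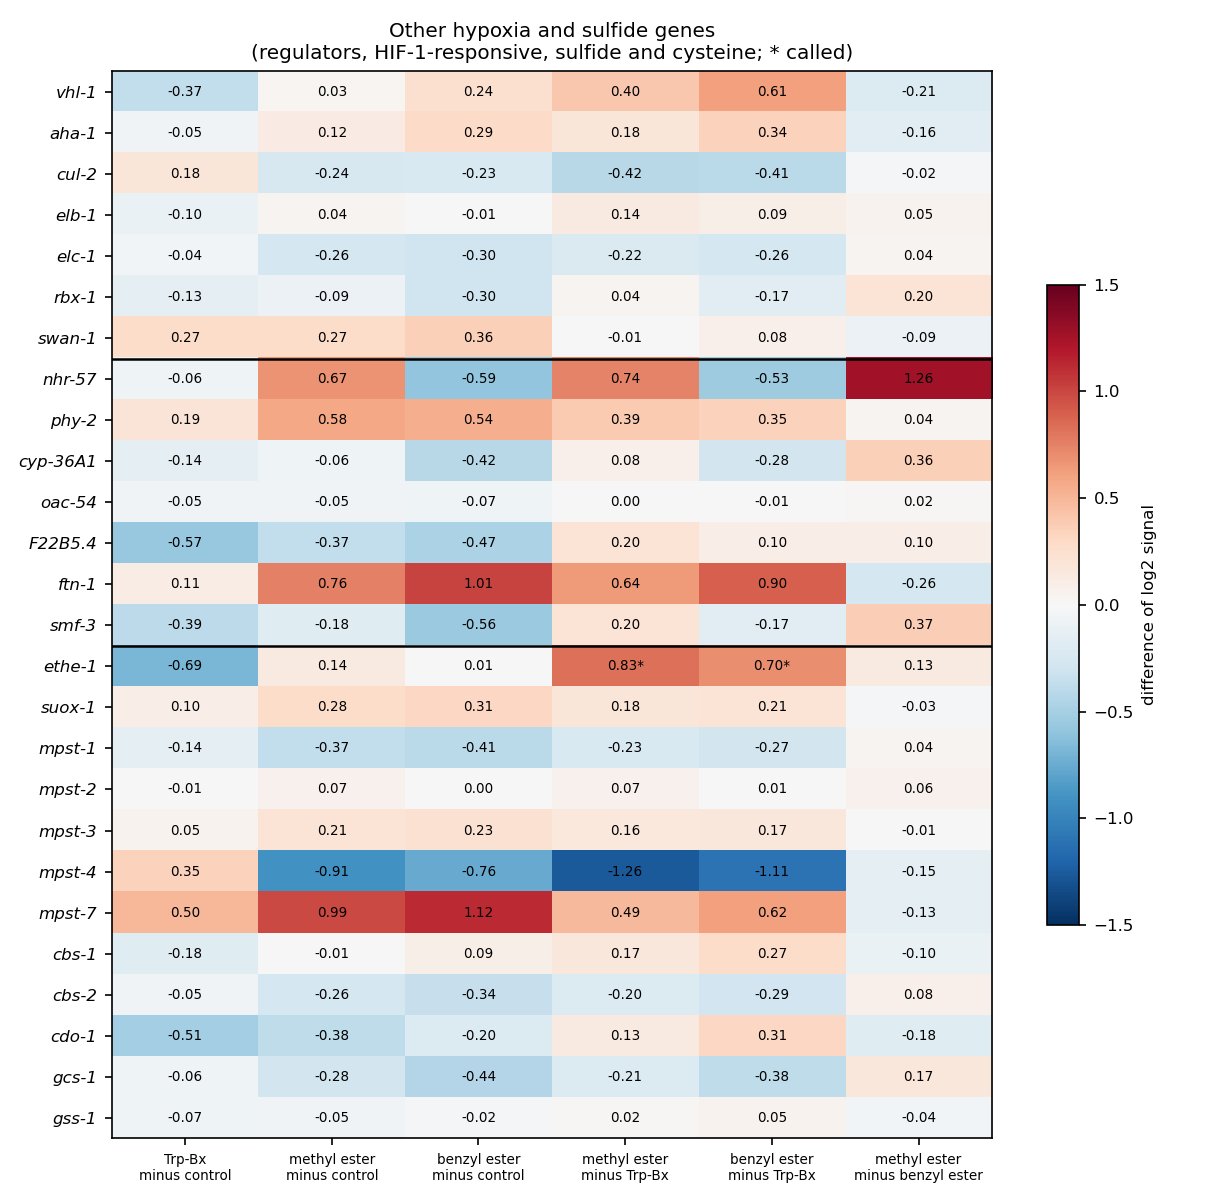
Difference of log2 signal of the 26 other pathway genes (rows) in the 6 comparisons (columns, Trp-Bx for tryptophan-betaxanthin), red higher and blue lower. Black lines part the HIF-1 regulators, the HIF-1-responsive genes and the sulfide and cysteine genes, and asterisks mark the 2 differences past an adjusted p of 0.05, both of *ethe-1*.

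Across the 11 arrays the profiles of the 10 genes fell along different lines, as a description over arrays that share groups and trials. The signal of *cysl-2* had a Pearson correlation of 0.792 with *rhy-1*, 0.710 with *sqrd-1* and 0.706 with *cysl-3*, and of 0.062 with *cth-1*. That of *cth-1* was 0.813 with *cysl-1*, 0.727 with *hif-1* and -0.772 with *cysl-4*. The benzyl ester group had the lowest mean for *cysl-2*, *rhy-1* and *sqrd-1*, and the methyl ester group the highest mean for *cth-1* and *cysl-1*.

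Over 13083 genes with a mean signal at or above the median, those most similar to *cysl-2* were *nspb-7* (r = 0.942), *rips-1* (0.935) and K11D2.1 (0.875). The signals of K11D2.1, 2.23 to 2.61, lay near the median of 2.28 for all probe sets. *rips-1* had signals of 5.01, 4.99 and 4.80 in the tryptophan-betaxanthin arrays, 5.30, 5.44 and 5.77 in the methyl ester arrays, 2.97, 3.88 and 2.53 in the benzyl ester arrays, and 5.07 and 5.19 in the controls. Those most similar to *cth-1* were the C-type lectin gene *clec-186* (0.975), T20B3.1 (0.966) and the predicted receptor gene *srr-4* (0.960). *srr-4* had 3.20, 3.32 and 3.39 in the tryptophan-betaxanthin arrays, 4.55, 4.44 and 5.10 in the methyl ester arrays, 3.78, 3.85 and 4.33 in the benzyl ester arrays, and 3.05 and 3.08 in the controls. As these genes were chosen for their likeness over the same arrays, no test is given for them here. Tests of *rips-1* are given below, where it stands as a neighbour of *cysl-3*.

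**Figure D4:**
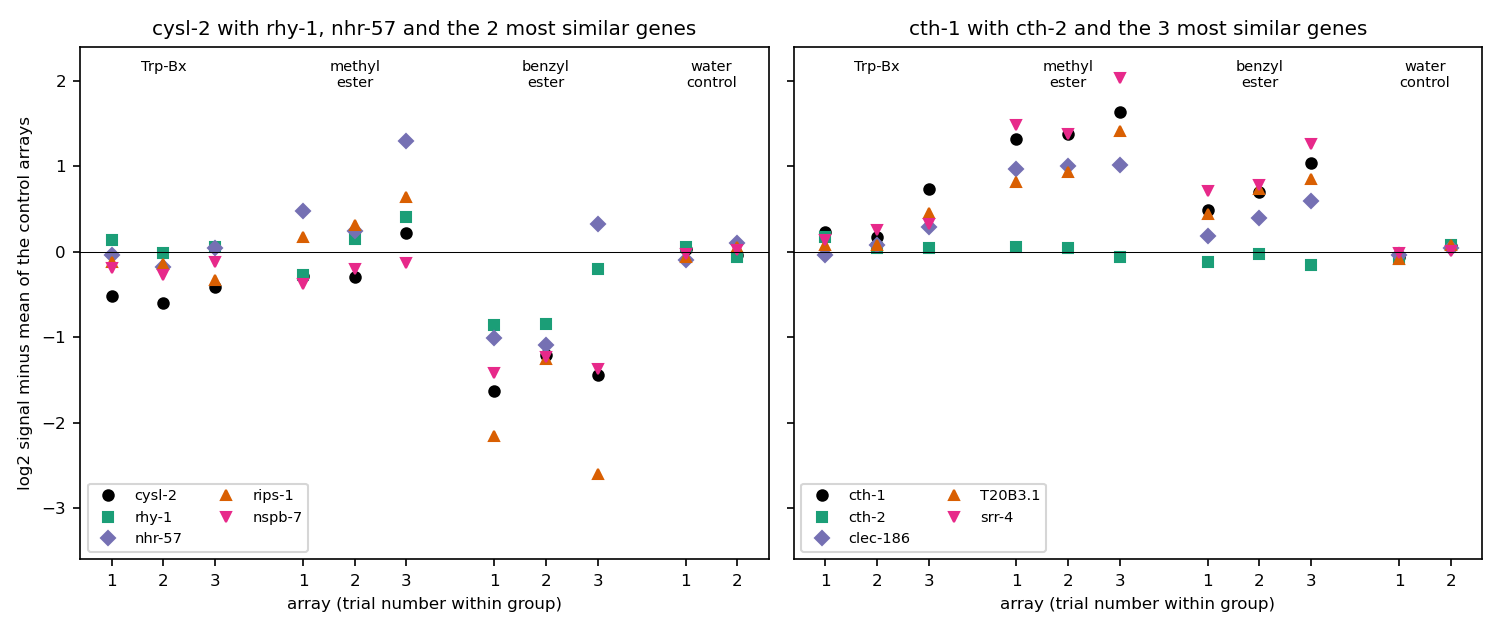
Log2 signal minus the mean of the control arrays, for *cysl-2* with *rhy-1*, *nhr-57* and its 2 most similar genes (left) and *cth-1* with *cth-2* and its 3 most similar genes (right). Each point is 1 array, numbered by trial within its group (Trp-Bx, tryptophan-betaxanthin), and *cysl-2*, *rips-1* and *nspb-7* lie below -1 in all 3 benzyl ester arrays.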

How the data were processed

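Whole-animal RNA of 11 cultures was hybridised to Affymetrix gene arrays. The authors deposited 1 log2 signal per probe set and array. The submitters' processing notes name RMA and the Affymetrix Expression Console, while the paper names the Transcriptome Analysis Console. Software versions were not given in the sources used here, nor was the annotation release. The values were used without further normalisation. Of 29317 probe sets, 26761 carried a gene symbol and were tested (26281 with 1 symbol, 480 with several), and 2556 without one were left out. For the 138 of 26128 symbols with more than 1 probe set, the one with the highest mean stood for it.

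All 11 arrays entered 1 linear model with a mean per group, fitted with limma 3.58.1 in R 4.3.3. P-values were adjusted by Benjamini-Hochberg over the 26761 probe sets within each of 6 comparisons (threshold 0.05). The script was first checked on simulated data. Trials are independent by their labels, so that the error is the spread from trial to trial. Arrays give no counts, so their number limits the precision, and no level is compared between probe sets. Exact two-sided permutation tests cannot go below 0.1 here.

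All 10 genes are named, with other pathway genes that passed a test, and for each called gene the 3 genes of highest Pearson correlation with it. The genes and lists were chosen with earlier results of these data known. Deviations of same-numbered arrays from their group means correlated when the esters were compared (0.501, 0.235 and 0.742). They also did when the methyl ester was compared with tryptophan-betaxanthin (0.214, 0.291 and 0.453). Arrays of different number were not compared, and the third-trial arrays of both esters stood apart. The labels do not state a pairing, so whether trial numbers pair these groups is not settled, and the main fit does not pair them. The alternatives were the trial as a block, a fit on just the compared groups, cyclic loess, probe sets at or above the median signal, all probe sets, array weights, the first and second trials alone, and each array left out. Neighbouring genes came from RefSeq for assembly WBcel235, matched by gene identifier or symbol.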

Additional observations from a re-analysis of the deposited data

How the results depend on the processing

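The 5 called differences kept their direction under all 18 alternatives, with *cysl-2* between -1.54 and -1.32 for the benzyl ester against the control, -1.03 and -0.82 for it against the parent pigment, and 1.13 and 1.42 between the methyl and the benzyl ester, and *cth-1* between 1.31 and 1.51 for the methyl ester against the control and 0.96 and 1.24 against the parent pigment. They were called in 15, 12, 17, 10 and 11 of the 18, in that order. In each of the 5 the groups compared did not overlap, so the 11 alternatives that left out 1 array could not change the direction. A fit on the compared groups or on another set of probe sets leaves the difference itself unchanged. Fitted on only the arrays of the groups compared, the number of the 10 genes called became 1 for tryptophan-betaxanthin against the control (*cysl-2*, adjusted p = 0.048), 0 for either ester against the control, 0 for the methyl ester against tryptophan-betaxanthin and 0 between the esters (*cysl-2*, adjusted p = 0.38), with fewer arrays to estimate the spread.

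With the trial as a replicate block the number was 2 for the benzyl ester against the control, 3 for it against tryptophan-betaxanthin and 2 between the methyl and the benzyl ester, by the gain of *cth-1*, and of *rhy-1* in the second. For the benzyl ester the correlations of same-numbered arrays were 0.272, -0.0609 and 0.472 with tryptophan-betaxanthin and 0.134 and -0.00795 with the control. They were positive in trials 1 and 3 with tryptophan-betaxanthin and not in trial 2, so whether the numbers pair the benzyl ester with these groups is not settled. The block changed no other call of the 10 genes. Array weights gave 3 for the benzyl ester against the control and 2 against tryptophan-betaxanthin. The first and second trials alone gave 3 and 2, and 2 between the methyl and the benzyl ester. The share of all probe sets called is not given for any alternative fit. These counts thus have no background to be set against, and the gains are not read as a result about the 10 genes. The cause of these gains was not tested.

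Leaving out 1 array gave 0 to 1 called genes for either ester against the control and for the methyl ester against tryptophan-betaxanthin, 0 to 2 for the benzyl ester against tryptophan-betaxanthin, and 1 to 1 between the methyl and the benzyl ester. Of 60 differences of the 10 genes, 17 had an unadjusted p below 0.05, and none of these changed sign under any alternative. Of the other 43, 18 did, all with a main difference of at most 0.23 in size. Leaving out an array cannot change the sign where the groups do not overlap. Over all probe sets, the share with an unadjusted p below 0.05 ranged from 4.33% (between the esters) to 20.2% (the methyl ester against tryptophan-betaxanthin). The 2 control arrays limit every comparison with the control. A search of promoter motifs was planned and not run, since promoter sequences were not used here.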

Other observations

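RefSeq places 20 protein-coding genes beside the 10 genes, and all 20 were measured, 6 of them called in at least 1 comparison, against 3.75% of all tested probe sets. Next to *cysl-3* lies *rips-1*, a predicted methyltransferase gene that was also among the genes most similar to *cysl-2*. It was not on the list of 29 other pathway genes, so the counts for that list do not cover it. Since it was also picked for its likeness to *cysl-2* over these arrays, its tests are not independent of the *cysl-2* result. It fell with the benzyl ester by 2.01 log2 units relative to the control (standard error 0.32, adjusted p = 0.0300 from limma), in all 3 arrays, while *cysl-3* itself had a difference of -0.30 (adjusted p = 0.594). Between the methyl and the benzyl ester *rips-1* differed by 2.38 (0.28, adjusted p = 0.0108). The call against the control was lost without any 1 tryptophan-betaxanthin array, methyl ester array 1, benzyl ester array 1 or either control (adjusted p = 0.053 to 0.34), and that between the esters without methyl ester array 2 or benzyl ester array 1 (0.061 and 0.057).

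Next to *cth-1* lies *argk-1*, an arginine kinase gene. It had signals of 3.87, 3.93 and 4.66 with the methyl ester, against 2.83, 2.42 and 2.74 with tryptophan-betaxanthin, 2.79, 2.95 and 2.71 with the benzyl ester, and 2.66 and 2.65 in the controls. It rose with the methyl ester relative to the control by 1.5 (adjusted p = 0.0381 from limma), to tryptophan-betaxanthin by 1.49 (adjusted p = 0.0146) and to the benzyl ester by 1.34 (adjusted p = 0.0484). The call against the control was lost without any 1 tryptophan-betaxanthin array, methyl ester array 1, benzyl ester array 2 or either control (0.06 to 0.48). That against tryptophan-betaxanthin was lost without any 1 of its arrays (0.055 to 0.085), and that between the esters without any 1 array other than methyl ester array 3 (0.065 to 0.17).

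The short-chain dehydrogenase gene *dhs-8*, next to *cysl-2*, had signals of 3.20, 3.14 and 3.19 in the tryptophan-betaxanthin arrays, 2.42, 2.13 and 1.96 in the methyl ester arrays, 2.08, 2.12 and 2.21 in the benzyl ester arrays, and 3.47 and 3.09 in the controls. It fell by 1.11 with the methyl ester (adjusted p = 0.0236) and by 1.14 with the benzyl ester (adjusted p = 0.0110) relative to the control, the methyl ester call being lost without any 1 tryptophan-betaxanthin array or either control (0.056 to 0.4) and the benzyl ester call without control array 1 (0.19). The ester signals lay near the median of 2.28 for all probe sets and may be close to background, whose level was not measured. The methyl and the benzyl ester differed by 0.03 (95% interval -0.26 to 0.33). The corresponding differences of *cysl-2* were -0.12 and -1.42. The other called neighbours were *vnut-1* beside *cysl-2*, and *chw-1* and *crp-1* beside *egl-9*.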
